A study of Oryza sativa with 6 samples.

Results

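The 9 cellulose synthase genes CESA1 to CESA9 of rice were followed in developing grains of a wild type and of a grain-filling mutant. They were found as the genes whose symbol or synonym in the RefSeq gene table is CESA1 to CESA9, with or without an Os prefix, and all 9 are on the array, out of 17905 genes with a probe set of their own there. They have 13 probe sets, of the 22436 that the platform annotation ties to a single gene. CESA1, CESA2, CESA3 and CESA4 have 2 probe sets each and the other 5 genes have 1. All 13 were bright enough to be tested. The rule for choosing the genes used no measured value, though it was set with earlier results of these data known.

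Total RNA came from whole caryopses, the developing rice grains with their pericarp, collected 7 days after flowering. There were 3 arrays of wild-type Zhonghua11, a japonica cultivar, and 3 of the mutant gif1, each labelled as a biological replicate. The mutant is known for a lesion in GIF1, an invertase of the cell wall that cleaves sucrose arriving in the grain. The labels give no other allele or treatment for either group, do not name the allele of gif1, do not say whether gif1 has a Zhonghua11 background, and do not say how many plants a replicate pools. If replicates were not from separate plants, the p-values measure only the spread between these samples.

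Cellulose synthases are membrane proteins that join glucose from UDP-glucose into the cellulose chains of plant walls, and they work in complexes that hold several different CESA proteins. In rice, CESA4, CESA7 and CESA9 are known as the genes of the secondary wall, the thick wall laid down after a cell has stopped growing. Mutants in any of them have brittle culms. CESA1, CESA3 and CESA8 are known from primary walls of growing cells, and CESA2, CESA5 and CESA6 are related genes grouped with them here. The comparison asked how each of these genes differed between the genotypes, and whether the secondary-wall genes differed from the others.

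Of the secondary-wall genes, CESA4 and CESA7 rose in gif1 to between 2.31 and 2.71 times their wild-type signal, and CESA9 did not pass. None of the other 6 genes passed in either direction. Values are deposited signals on a linear scale, and each log2 difference is gif1 minus wild type after 17.7 was added to every signal, which understates the change of dim probe sets. A probe set is called at a limma adjusted p under 0.05, adjusted over 28597 tested probe sets. In all, 3 of the 13 CESA probe sets were called higher, against 5.98% of all tested probe sets, and 0 were called lower, against 6%. Taking only the brightest probe set of each gene, 2 of the 9 genes were called higher. The signal was measured in whole grains, so more cells of a type and more RNA per cell cannot be told apart.

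**Figure D1:**
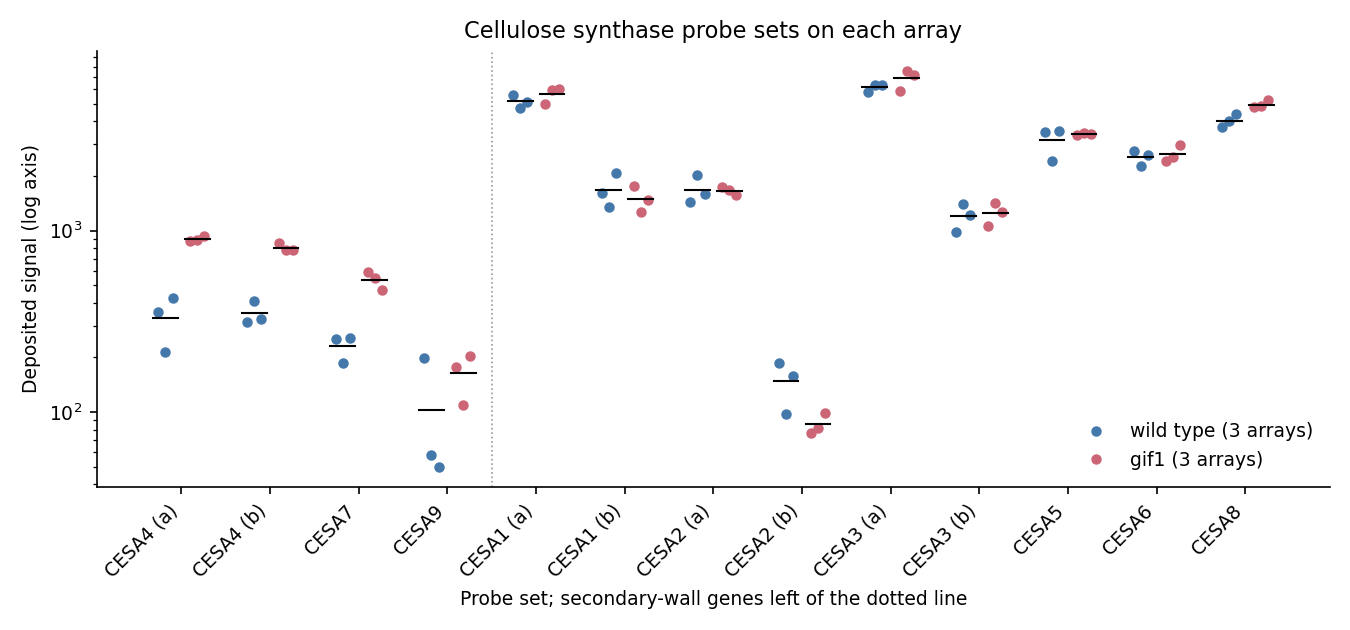
Deposited signal of the 13 cellulose synthase probe sets on each array, on a log axis, with wild-type arrays in blue, gif1 arrays in red and bars at the group means. Where a gene has 2 probe sets, (a) is the brighter. The gif1 arrays lie above all wild-type arrays for both CESA4 probe sets, CESA7 and CESA8, and the groups overlap for the other 9 probe sets. Heights are not comparable between probe sets.

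CESA4 (LOC4324625) rose on both of its probe sets. The platform annotation gives both the same source sequence, so they are not independent readings. On the brighter one the signals of the wild-type arrays were 356.3, 214.5 and 422.9, and those of the gif1 arrays 873.2, 888.6 and 934.7. Every gif1 array lay above every wild-type array, and the wild-type arrays were the more spread. The wild type averaged 331 ± 106 (SD, n = 3) and gif1 899 ± 32.0 (SD, n = 3), a log2 difference of 1.44 (SE 0.23, limma adjusted p = 0.00298). Only 1.26% of all tested probe sets had a difference at least as high.

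The second CESA4 probe set, whose identifier ends in _a_at, read 312.5, 411 and 326.2 in the wild type against 851.7, 786.5 and 781.4 in gif1. Its groups did not overlap either, although the wild-type arrays ranked differently: replicate 2 was the lowest on the brighter probe set and the highest on this one. The log2 difference was 1.17 (SE 0.18, limma adjusted p = 0.00233). The 95% intervals of the probe sets, 0.94 to 1.95 and 0.78 to 1.57, overlap over most of their length.

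CESA7 (LOC4348853), another subunit of the secondary-wall complex, read 253.3, 187.6 and 255.7 in the wild type against 591, 545.2 and 472.7 in gif1. All gif1 arrays were again above all wild-type arrays. The wild type averaged 232 ± 38.6 (SD, n = 3) and gif1 536 ± 59.7 (SD, n = 3), a log2 difference of 1.16 (SE 0.21, limma adjusted p = 0.00626), with 2.20% of all tested probe sets at least as high.

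CESA9 (LOC4347093), the third of the secondary-wall genes, was dim and variable. It read 198.4, 58.4 and 49.9 in the wild type against 176.9, 109.9 and 205 in gif1. Wild-type replicate 1 lay above gif1 replicates 1 and 2, so the groups overlap. The wild type averaged 102 ± 83.4 (SD, n = 3) and gif1 164 ± 48.9 (SD, n = 3). The log2 difference was 0.77 (SE 0.48, limma adjusted p = 0.325), and its 95% interval ran from -0.29 to 1.83, which includes both 0 and the values of CESA4 and CESA7. Without wild-type replicate 1 the difference was 1.30 (limma adjusted p = 0.0683), and without wild-type replicate 3 it was 0.46 (0.590). CESA9 did not pass under any of 15 alternative settings.

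**Figure D2:**
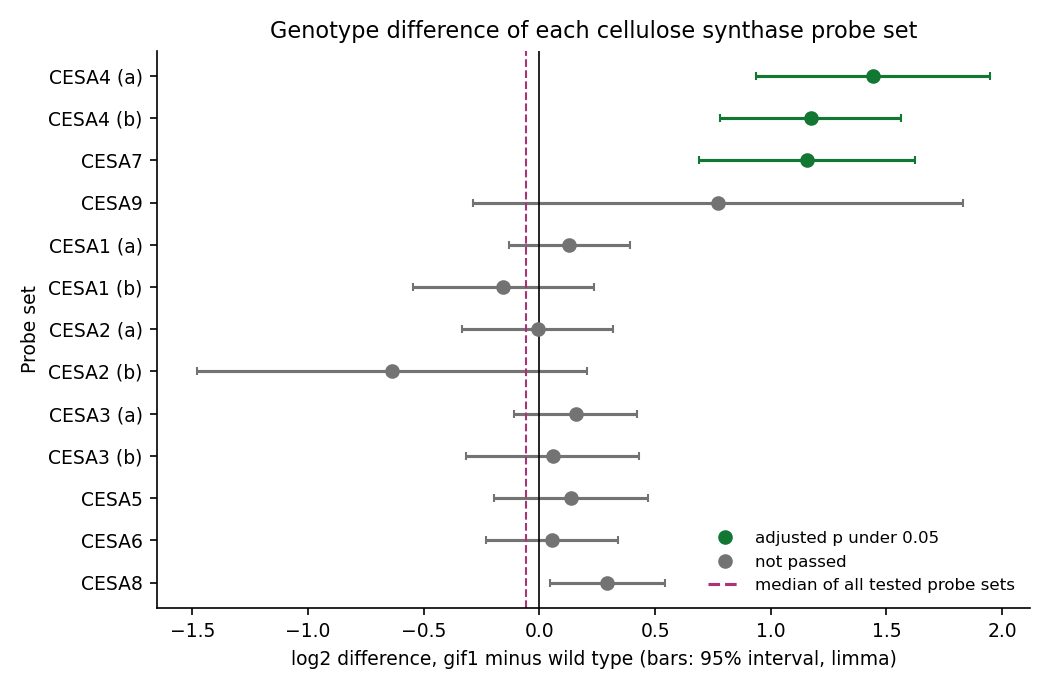
The log2 difference, gif1 minus wild type, of each cellulose synthase probe set with its 95% interval from limma, where (a) marks the brighter of 2 probe sets. The called probe sets (green) are those of CESA4 and CESA7, and the interval of CESA9 is the widest of the secondary-wall genes. The dashed line is the median of all tested probe sets, -0.06.

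Among the genes of primary walls, CESA8 (LOC4342699) came nearest to a call. It read 3703.2, 4039.3 and 4389.1 in the wild type against 4777.9, 4838.8 and 5243.7 in gif1. The groups did not overlap, a pattern shown as higher by 15.1% of all tested probe sets and found for 4 of the 13 CESA probe sets. The reverse, all gif1 arrays below all wild-type arrays, was found for 0 of the 13, against 18.3% of all tested. The wild type averaged 4044 ± 343 (SD, n = 3) and gif1 4953 ± 253 (SD, n = 3), and the log2 difference of 0.29 (SE 0.11, limma adjusted p = 0.115) did not pass.

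CESA1 (LOC4337958) and CESA3 (LOC4343049), the genes known to act with CESA8, differed by little on their brighter probe sets. CESA1 read 5568.3, 4770.7 and 5107.5 in the wild type against 4961.8, 5962.9 and 6010 in gif1 (log2 difference 0.13, SE 0.12, limma adjusted p = 0.513). CESA3 read 5798.2, 6374.4 and 6333.5 against 5880.2, 7623.3 and 7238.8 (0.16, SE 0.12, limma adjusted p = 0.433). In both genes the groups overlap, with gif1 replicate 1 inside the wild-type range. The 95% intervals ran from -0.13 to 0.39 for CESA1 and from -0.11 to 0.42 for CESA3, so a rise of the size seen in CESA4 or CESA7 lies outside them on this scaling. The dimmer probe set of CESA1 stood at -0.16 (SE 0.18) and that of CESA3 at 0.06 (SE 0.17), neither passing.

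CESA5 (LOC4334710) read 3495.4, 2409.4 and 3560.8 in the wild type against 3368.3, 3466.3 and 3408.1 in gif1. The gif1 arrays lay between the wild-type arrays, whose replicate 2 was low (log2 difference 0.14, SE 0.15, limma adjusted p = 0.601). CESA6 (LOC4342850) read 2740.7, 2279.4 and 2620.8 against 2432.7, 2550 and 2958.7, with overlapping groups (0.05, SE 0.13, limma adjusted p = 0.823). CESA2 (LOC4334515) read 1433.2, 2014.2 and 1590.3 against 1731, 1664.5 and 1568.9 on its brighter probe set, where the gif1 arrays lay within the wild-type range (-0.01, SE 0.15, limma adjusted p = 0.981).

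The probe sets of CESA2 did not read alike. The dimmer read 186.9, 98.1 and 157.6 in the wild type against 76.9, 82.2 and 98.9 in gif1. Only wild-type replicate 2 fell within the gif1 range. Its log2 difference of -0.64 (SE 0.39, limma adjusted p = 0.305) did not pass, and the 95% interval of -1.48 to 0.20 overlaps that of the brighter probe set, -0.34 to 0.32.

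Taking the brightest probe set of each gene, all 3 secondary-wall genes had positive differences, with a median of 1.16, and 2 of them were called. The other 6 genes had differences from -0.01 to 0.29 with a median of 0.13, and 0 were called. The median of all 28597 tested probe sets was -0.06. No difference of a secondary-wall gene, CESA9 included, fell within the range of the others.

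The mean log2 signal of CESA4, CESA7 and CESA9 was 8.13, 7.26 and 7.65 in the wild type against 8.88, 8.65 and 8.88 in gif1. That of the other 6 genes was 11.75, 11.71 and 11.81 in the wild type against 11.80, 11.92 and 11.94 in gif1. Subtracting the second mean from the first within each array gave -3.63, -4.45 and -4.16 in the wild type against -2.91, -3.26 and -3.07 in gif1, and every gif1 array lay above every wild-type array. The level of this value reflects the probes, so only its difference between genotypes is read, which was 1.00 (pooled SD over arrays 0.32). It is a mean over chosen genes and carries no test.

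**Figure D3:**
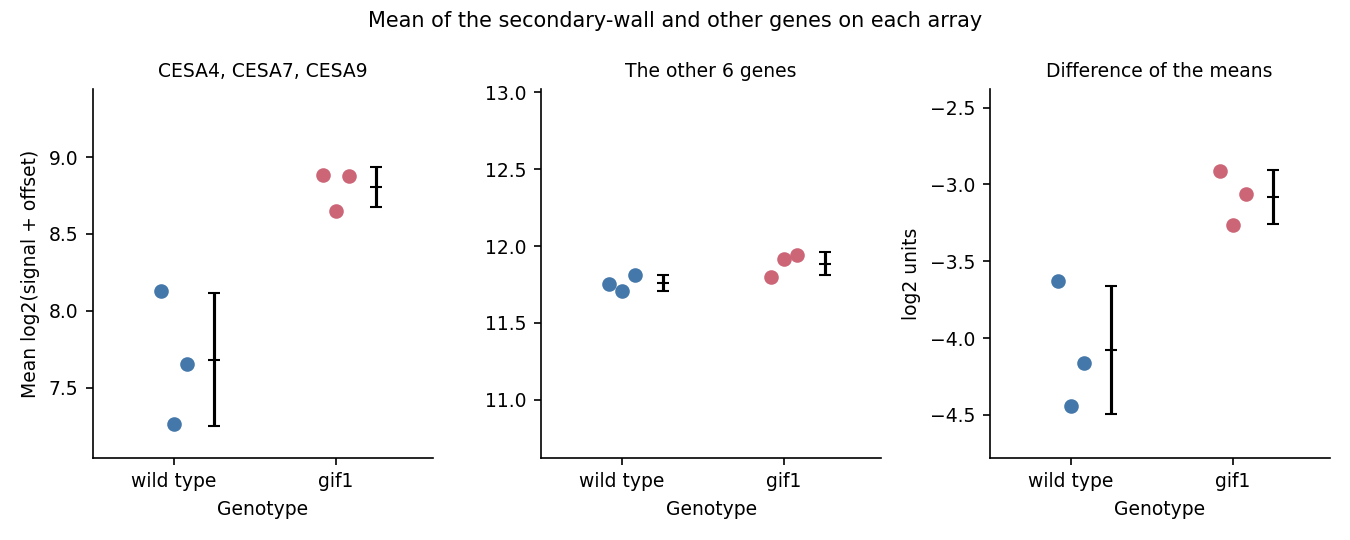
Mean log2(signal + 17.7) of the brightest probe sets of CESA4, CESA7 and CESA9 (left), of the other 6 genes (middle) and the first minus the second (right) on each array, with the mean and SD of each genotype beside the points. The axes span the same number of log2 units. The gif1 arrays lie above the wild-type arrays in the left and right panels, and in the middle panel the groups overlap.

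A ratio of 2 genes on the same array does not depend on a factor applied to the whole array when no offset is added. Quantile normalization is not such a factor and can change the ratio. Pairing each of the 3 secondary-wall genes with each of the other 6 gave 18 such ratios. All 18 were higher in gif1 on average, by 0.63 to 1.50 on the log2 scale. In the 12 ratios that hold CESA4 or CESA7, every gif1 array exceeded every wild-type array, and in the 6 ratios that hold CESA9 the groups overlapped. The highest ratio change was that of CESA4 over CESA2, and the lowest that of CESA9 over CESA8. These ratios share genes and arrays and are given as a description. They show unequal change between the genes, not which of them changed.

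How the arrays are scaled decides whether the other 6 genes count as changed. As deposited, every array has a trimmed mean near 500, while its median signal was 83.7 to 103.6 in wild type and 67.5 to 72.6 in gif1. When the arrays were instead centred to a common median, the median difference of all tested probe sets moved to 0.28, and 7 CESA probe sets were called higher against 20.3% of all tested. The probe sets added to the calls were those of CESA5 (0.47) and CESA8 (0.63) and the brighter ones of CESA1 (0.47) and CESA3 (0.49). With arrays scaled to the hybridization spikes, RNAs added after labelling, the median difference was 0.42, and 10 CESA probe sets were called higher against 33.7% of all tested. As deposited, the spikes themselves differed by -0.51 on the log2 scale, all gif1 arrays below all wild-type arrays.

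Median centring moves every probe set of an array alike, so positions relative to the median of all tested probe sets cannot change with it. The brighter CESA4 probe set stood 1.50 above that median, CESA7 1.21, CESA8 0.35 and CESA1 0.19. Quantile normalization can change these positions. With it CESA4 stood 1.44 above the median and CESA7 1.22, while CESA8 stood at 0.25, CESA1 at 0.08 and the dimmer CESA3 probe set at -0.02, where it had been at 0.11. The 3 calls were the same as on the deposited scaling. Both CESA4 probe sets and CESA7 were called higher under all 15 alternatives, with limma adjusted p-values of up to 0.0469 for CESA4 and 0.0404 for CESA7.

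**Figure D4:**
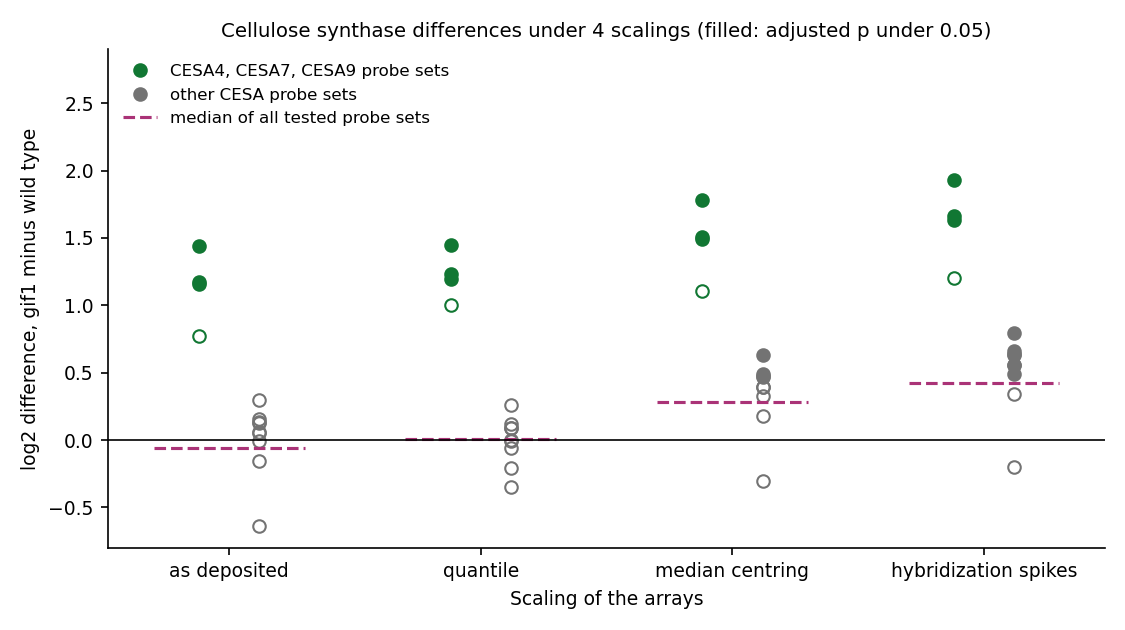
The log2 difference, gif1 minus wild type, of the 13 cellulose synthase probe sets under 4 scalings of the arrays. Filled points have a limma adjusted p under 0.05, and dashed lines mark the median of all tested probe sets. The secondary-wall probe sets (green) lie above the others in each scaling, and the calls among the others (grey) appear with median centring and spike scaling, where the dashed line is above 0.

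Several other measures moved with genotype on the same arrays. Poly-A control RNAs, added before labelling, differed by -2.25 on the log2 scale, all gif1 arrays below all wild-type arrays, and ribosomal RNA probe sets differed by -1.06. The transcript of GIF1 itself, the gene of the mutant, differed by -1.77 (SE 0.28, limma adjusted p = 0.00254). The marker counts that follow stand beside 5.98% of all tested probe sets called higher and 6% called lower on the deposited scaling. Of 6 tested green pericarp markers 5 rose, and the list's summed signal was 76575 to 81290 in wild type and 95974 to 117427 in gif1. Of 9 starchy endosperm markers 8 fell, with sums of 562264 to 707653 and 390895 to 445453. These falls depended on the scaling: 1 of the 9, RAG1, was called lower with median centring, quantile normalization or spike scaling, and the globulin GLB1 was called higher with the first and the last (0.65 and 0.81). The pericarp list had 4 higher calls with quantile normalization and 5 with the other scalings, and the aleurone and embryo list 4 lower calls with each. That last list also had 2 higher calls with median centring, 2 with spike scaling and 1 with quantile normalization. With quantile normalization, 5.39% of all tested probe sets were called higher and 4.88% lower. With median centring the shares were 20.3% and 2.14%, and with spike scaling 33.7% and 1.69%. As deposited, of 9 aleurone and embryo markers 4 fell and 1 rose, with sums of 62478 to 99539 and 35012 to 36266. The marker that rose kept its call under 9 of 15 alternatives. None of the markers on the array read 0 on any array. The nucellus marker MADS29 (0.07, SE 0.13, limma adjusted p = 0.760) and the sucrose transporter SUT1 (-0.03, SE 0.15, limma adjusted p = 0.915) did not pass, and their sums were 4001 to 5069 and 4424 to 4830. With spike scaling MADS29 was called higher (0.57, limma adjusted p = 0.0192). The part of tissue makeup or RNA handling in the CESA differences was not tested.

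Genes that work beside the cellulose synthases were taken from lists of names, with the brightest probe set of each gene. The counts that follow stand beside 5.98% of all tested probe sets called higher and 6% called lower on the deposited scaling. With median centring these shares are 20.3% and 2.14%, with spike scaling 33.7% and 1.69%, and with quantile normalization 5.39% and 4.88%. Of 5 tested genes listed as partners in cellulose synthesis, 2 rose and 0 fell. BC1, a COBRA-like protein needed for secondary-wall cellulose in the rice culm, read 320.2, 387.9 and 361.1 in the wild type against 816.4, 691.2 and 830.3 in gif1. Its groups did not overlap and its log2 difference of 1.09 (SE 0.18, limma adjusted p = 0.00318) passed under all 15 alternatives. The endoglucanase GLU2 rose by 0.47 (SE 0.11, limma adjusted p = 0.0177), a call lost without any 1 gif1 array (adjusted p up to 0.0818) and without the intensity trend (0.106). The endoglucanases GLU1 (-0.42, SE 0.13, limma adjusted p = 0.0581) and GLU5 (1.56, SE 0.65, limma adjusted p = 0.138) did not pass. GLU1 was called lower with quantile normalization (-0.46, limma adjusted p = 0.0423), and GLU5 higher with median centring (1.90, limma adjusted p = 0.0483) and spike scaling (1.91, limma adjusted p = 0.0301). The list's median was 0.47 against -0.06 over all tested probe sets.

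The cellulose synthase-like (CSL) genes, relatives that make other wall polysaccharides, were mostly not called on the deposited scaling. Of 15 tested 0 rose and 1 fell, a share near that of all tested probe sets, with a median of 0.28. With median centring 5 were called higher and 0 lower, and with spike scaling 7 and 0. The one that fell was CSLE2 (-0.70, SE 0.19, limma adjusted p = 0.0363). It kept its call under 6 of 15 alternatives, and stood at -0.36 with median centring (adjusted p = 0.284) and -0.20 with spike scaling (0.504). The call was also lost when any 1 array other than wild-type replicate 1 was left out, with differences of -0.57 to -0.77 and limma adjusted p up to 0.132. A further CSLE2 probe set, ending in _x_at, also passed as lower (-1.08, SE 0.18), and another did not (-0.75, SE 0.32). CSLF6, which makes the mixed-linkage glucan of grass walls, read 1632, 1064.6 and 1100.9 in the wild type against 1871.5, 1738.8 and 1804.2 in gif1, groups that did not overlap (0.53, SE 0.17, limma adjusted p = 0.0635, not passing). CSLD2 (0.54, SE 0.17, limma adjusted p = 0.0563) and CSLF2 (1.45, SE 0.54, limma adjusted p = 0.104) did not pass either. All 3 of these passed with median centring, CSLF6 at 0.87 (limma adjusted p = 0.00351), CSLD2 at 0.88 (0.00536) and CSLF2 at 1.78 (0.0234), and again with spike scaling.

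Lignin and xylan, the other main polymers of secondary walls, had 26 tested genes, of which 5 rose and 1 fell, with a median of -0.09. The rises were 5 with quantile normalization, 6 with median centring and 10 with spike scaling, and 0 fell with any of these. The laccase LAC10 read 282, 253.2 and 355.4 in the wild type against 957.5, 1687.6 and 1122.9 in gif1 (1.99, SE 0.23, limma adjusted p = 0.000488). The alcohol dehydrogenase CAD3 read 1640.5, 1860.2 and 1233.1 against 3356.6, 3442 and 3836.9 (1.18, SE 0.16, limma adjusted p = 0.00109). Laccases join lignin monomers and alcohol dehydrogenases of this family make them. In both genes every gif1 array exceeded every wild-type array, and both passed under all 15 alternatives.

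The xylan glycosyltransferase IRX9L rose by 0.79 (SE 0.14, limma adjusted p = 0.00512) and passed under all 15 alternatives, though its probe set ends in _x_at and can also bind related transcripts. Its relative GT43A rose by 0.94 (SE 0.26, limma adjusted p = 0.0403), and GH2, the cinnamyl alcohol dehydrogenase CAD2, by 0.38 (SE 0.11, limma adjusted p = 0.0475). Both of these calls were lost without any 1 gif1 array, with adjusted p up to 0.138 for GT43A and 0.177 for GH2. They were also lost without wild-type replicate 2 (0.0926 and 0.133), with GT43A then at 0.62, and that of GH2 without wild-type replicate 3 (0.0714). Both calls were lost without the filter (0.0602 and 0.110) and without the intensity trend (0.125 and 0.178), and that of GH2 with the replicate block (0.0761). GT43A kept its call under 9 of 15 alternatives and GH2 under 7. The ligase 4CL2, which activates lignin precursors, fell, with a log2 difference of -0.83 (SE 0.22, limma adjusted p = 0.0294). It kept its call under 4 of 15 alternatives, and stood at -0.49 (adjusted p = 0.162) with median centring and -0.35 (0.278) with spike scaling. Leaving out wild-type replicate 1 alone kept the call, and leaving out any other array ended it (adjusted p up to 0.0972).

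Sucrose synthases supply UDP-glucose, the substrate of cellulose synthesis. Of 4 tested genes 0 rose and 1 fell on the deposited scaling. With median centring 2 rose and 0 fell, and with spike scaling 3 rose and 0 fell. SUS4 read 15134.1, 16834.3 and 27329 in the wild type against 12027.9, 11813.2 and 9112 in gif1 (-0.81, SE 0.19, limma adjusted p = 0.0216). The groups did not overlap, but the call was lost without any 1 gif1 array (adjusted p up to 0.0972), with median centring the difference was -0.47 (0.104), and with spike scaling it was -0.30 (0.203). The SUS4 call was also lost without the intensity trend (0.129). SUS1 (0.04, SE 0.15, limma adjusted p = 0.895), SUS2 (0.30, SE 0.13, limma adjusted p = 0.143) and SUS3 (0.31, SE 0.15, limma adjusted p = 0.204) did not pass as deposited. SUS2 and SUS3 were called higher with median centring (0.64 and 0.65) and, with SUS1 (0.54), with spike scaling. Of 26 names listed for regulators of secondary walls, 2 matched genes on the array. NAC5 (0.23, SE 0.19, limma adjusted p = 0.475) did not pass, though it was called higher with median centring (0.57) and spike scaling (0.73), and NAC7 was too dim to be tested.

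**Figure D5:**
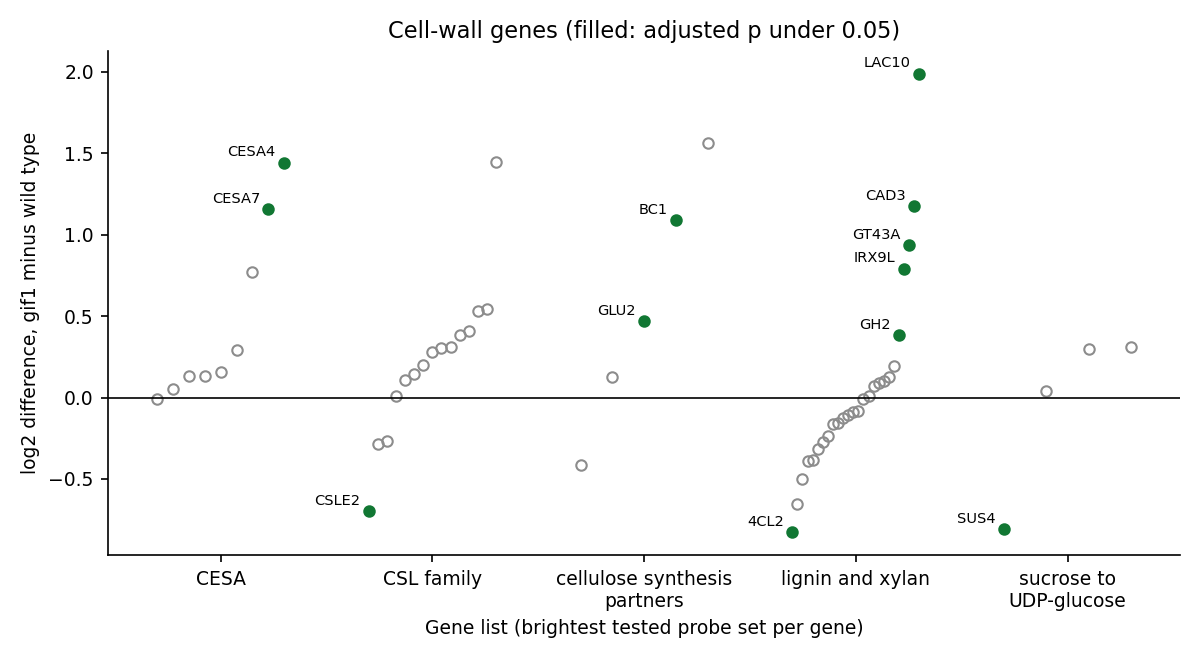
The log2 difference, gif1 minus wild type, of the brightest tested probe set of each gene in the CESA family and in 4 lists of cell-wall genes. Filled, named points have a limma adjusted p under 0.05. The called genes of the CESA family and of the partner list all lie above 0, those of the lignin and xylan list lie on both sides, and those of the CSL family and the sucrose list lie below. Values are on the deposited scaling, and the calls below 0 are lost with median centring and spike scaling.

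The genes most like the secondary-wall cellulose synthases across the arrays were sought by the root mean square distance, over the 6 arrays, between log2 profiles with each profile's mean set to 0. CESA7 was the 40th nearest of all tested probe sets to CESA4, at a distance of 0.24, and CESA4 was the 237th nearest to CESA7. CESA9 was further from both, at 0.69 from CESA4 and 0.60 from CESA7. CESA8 was the nearest to CESA4 of the other 6 genes, at 0.63, closer than CESA9.

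Against the mean profile of CESA4, CESA7 and CESA9, the nearest genes with a symbol of their own were ASL1 (0.20), the MYB-type transcription factor MYBS2 (0.27), IRX9L (0.29), wsl8 (0.32) and CRO1, a calreticulin (0.32). They ranked only 81st, 319th, 419th, 655th and 685th of the 28597 tested probe sets. Nearer probe sets were left out where they had no such symbol or were not the brightest of their gene. All 5 had been called higher in gif1, with log2 differences of 0.93, 0.82, 0.79, 0.65 and 0.63, as any gene close to this profile tends to be. IRX9L is also a member of the xylan list above. Of the genes that make up the mean profile, CESA7 ranked 80th in nearness to it, CESA4 354th and CESA9 2216th.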

How the data were processed

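Biotin-labelled RNA was hybridized to 6 single-colour Affymetrix rice arrays. The authors deposited 1 linear intensity value for each probe set. GCOS 1.4 is named in the submitters' processing notes. Its background, summary and scaling settings are not given here in any label or header. Every column was matched to its sample by its label (0 unmapped). The number of arrays limits the precision.

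Of 57381 probe sets, 187 controls were left out. Signals were taken as log2(signal + 17.7), where the added value is the 25th percentile over the whole table. Probe sets with a mean signal of at least 74.1, the median, entered the test (28597), run in limma 3.58.1 under R 4.3.3 (lmFit and eBayes with an intensity trend, genotype as the only term, Benjamini-Hochberg adjustment over all tested). The fit was tested on simulated data. Figures used Python 3.11.15 and matplotlib 3.10.9.

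Gene names came from the platform annotation and the RefSeq gene table of assembly ASM3414082v1, with no coordinates printed, since no label or header names the array's build. The genes named are all CESA genes, called members and up to 4 of the smallest p in each list, GIF1, and the 5 nearest profiles among genes with a symbol. For the marker lists of the pericarp, endosperm, and aleurone and embryo, counts and sums are given in place of most names. RAG1 and GLB1 were picked out for their calls under the other scalings, and OSH1 for its doubtful match. The members, lists and tests were chosen with earlier results of these data known. List names matched few genes for some lists: 34 CSL names gave 20 genes on the array, 34 partner names 8, 90 lignin and xylan names 33, 17 sucrose names 6, 26 regulator names 2, 26 green pericarp names 7, 17 starchy endosperm names 10, 12 aleurone and embryo names 9, and 5 nucellus and vascular names 2. A second gene with the synonym BC1 is a bHLH protein, too dim to be tested, and the gene matched as C3H1 carries a name that CCCH zinc-finger proteins use. OSH1 of the aleurone and embryo list was matched without its Os prefix, as H1, so that match may be to another gene.

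Alternatives were 2 other offsets, no filter, 3 other scalings, no trend, array weights, the replicate number as a block, and each array left out.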

Additional observations from a re-analysis of the deposited data

How the results depend on the processing

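Precision is limited by 3 arrays per group and, for CESA9 and the dimmer CESA2 probe set, by low signal. The count of all called probe sets moved from 3425 (1709 higher, 1716 lower) to 6430 (5817 and 613) with median centring, to 10130 (9648 and 482) with spike scaling and to 784 (368 and 416) without the intensity trend, where fewer probe sets passed at the same differences. Without the filter 1122 were called lower, with more probe sets adjusted over. Leaving out 1 array gave 1436 to 4294 calls, 727 to 2289 higher and 709 to 2005 lower. The CESA probe sets called higher numbered 7 with median centring and 10 with spike scaling, and 3 under each other setting, and 0 were called lower under any. The secondary-wall genes minus the others ran from 0.81 to 1.22 when 1 array was left out, and stood at 1.09 with no offset, 0.82 with an offset 4 times as large, 1.14 with quantile normalization and 1.04 with the mean of all tested probe sets of a gene.

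Differences near 0 changed sign. Median centring shifts all probe sets of an array alike, and spike scaling does so apart from the offset. With the first and the second, CESA1's dimmer probe set stood at 0.18 and 0.34. CESA2's brighter one stood at 0.33 and 0.49 (the last passing, limma adjusted p = 0.0394). With quantile normalization CESA3's dimmer probe set stood at -0.0055. When 1 array was left out, these ran from -0.30 to 0.0059, from -0.11 to 0.13 and from -0.081 to 0.17, and CESA5 and CESA6 ran from -0.047 to 0.23 and from -0.028 to 0.11. The cause was not tested.

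With the replicate number as a block, 1436 probe sets were called higher and 1394 lower, and the same 3 CESA probe sets passed. The numbers were not taken as pairing the samples: same-numbered arrays' deviations correlated at -0.03, 0.02 and -0.05, and wild-type replicate 1 correlated best with gif1 replicate 3 (0.08).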

Other observations

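Of 18 genes of the wall lists that were too dim to be tested in the comparison, 4 had groups that did not overlap, 3 lower in gif1 and 1 higher. Of all probe sets too dim to be tested, 10.3% were lower in this way and 2.92% higher. The 4 genes were chosen here after their values were seen. CSLD5, a cellulose synthase-like gene, read 64.9, 66.7 and 171.9 in the wild type against 8.5, 9.7 and 50.1 in gif1. CSLC3, of the same wider family, read 90.9, 76.1 and 58.6 against 33.8, 29.4 and 25.3. The laccase LAC19 read 69.8, 26.4 and 49.1 against 2.9, 2.6 and 20.6. The endoglucanase GLU8 went the other way, from 43.3, 34.8 and 31.1 to 73.2, 128.6 and 76.9. With no filter on dim probe sets, none of the 4 passed, with limma adjusted p-values of 0.224, 0.426, 0.197 and 0.401.

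The genes that lie next to the CESA genes in the gene table of assembly ASM3414082v1 number 18, of which 10 had a tested probe set and 2 were called, both as lower, where 6% of all tested probe sets were. They were LOC4324624 beside CESA4 (-0.63, SE 0.19, limma adjusted p = 0.0498) and LOC4347092 beside CESA9 (-0.50, SE 0.12, limma adjusted p = 0.0240). The tested gene beside CESA7, LOC4348852, differed by -0.22 (SE 0.12, limma adjusted p = 0.259).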
